A study of Homo sapiens with 3 samples.

Results

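The comparison of M2-treated with untreated tumorspheres rests on 2 of the 3 libraries of the study, 1 on each side, and takes in all 57773 genes of the deposited table for that pair. Reads lay on 21209 of these genes in 1 or both libraries and on 14195 in both. A gene was counted when it had at least 100 reads in 1 or both libraries, which held for 3805 genes, and these carried 97.4% of the reads of the M2 library and 97.6% of those of the control. The M2 library came from wild-type MDA-MB-231 tumorspheres given M2, a compound that the labels name only by this code, at 10 µM for 24 h. The library labelled LINC00273 overexpression, called the LINC-labelled library here and used for values side by side, came from wild-type spheres transfected with a LINC00273 clone in pcDNA under a CMV promoter, also with a time of 24 h. The control came from wild-type spheres without treatment at the same labelled time, and the labels name no vehicle. MDA-MB-231 is an established cell line from a triple-negative breast cancer, and tumorspheres are floating clusters, grown here in medium with EGF, B27, insulin and albumin on plates to which cells do not adhere. The title of the series presents LINC00273 as a sponge for microRNAs through its G-quadruplex, with metastasis, stemness and chemoresistance as outcomes, and the label of the M2 library gives tumour regression as its phenotype. With 1 library per group there is no replicate check, no test was possible, and each ratio compares 2 libraries rather than 2 conditions.

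The M2 library held 4695535 reads on genes, the LINC-labelled library 5123199 and the control 8620534. Of these, 39.3%, 42.8% and 54.7% in the same order lay on RN7SL1 and RN7SK, the structural RNAs 7SL and 7SK. LINC00273 itself had 0 reads in each of the 3 libraries, which allows up to 1.28 CPM with M2, 1.17 in the LINC-labelled library and 0.696 in the control, a limit for counting error only. Ratios are log2 ratios of M2 over control after TMM scaling, with a 95% exact binomial (Clopper-Pearson) interval in brackets that covers counting error only, because reads copied by PCR and not tagged with molecular identifiers do not each stand for a molecule. Of the markers of a mesenchymal MDA-MB-231 cell, VIM had 4182 reads with M2, 8910 in the LINC-labelled library and 11763 in the control, and CAV1 and MSN were also read at 288 and 1189 with M2. CD44 had 29 with M2, 44 in the LINC-labelled library and 86 in the control, CAV2 had 4 in each library, S100A4 at most 2, LGALS1 8 with M2 and 72 in the control, and ANXA1 15 and 13 in the same order. Several markers that define this line were therefore near 0 in all libraries. The epithelial genes KRT8, KRT18, KRT19, EPCAM and CDH1 had at most 11 reads in any library. None of 19 luminal or epithelial and of 11 fibroblast markers was counted, and 0 of 13 mitochondrially encoded genes had more than 2 reads. Of 13 blood cell markers 3 were counted, all of them globins: HBB had 5417 reads with M2, 9 in the LINC-labelled library and 4860 in the control, HBA2 had 944 with M2, 0 in the LINC-labelled library and 788 in the control, and HBA1 had 175 with M2, 2 in the LINC-labelled library and 168 in the control. The leukocyte gene PTPRC had 46 reads with M2, 10 in the LINC-labelled library and 38 in the control. Globin reads were thus abundant with M2 and in the control and near 0 in the LINC-labelled library, with log2 ratios of M2 over control of 0.68 to 0.88. The part of RNA from blood cells in the differences below was not tested.

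Tumorspheres retain cells that survive without a substrate, and the RNAs followed here come from several layers of such a cell. Matrix glycoproteins, syndecans and membrane proteases act at the surface, where carcinoma cells adhere, take up growth factors and degrade matrix, and caveolae are the lipid-rich pits beneath it. Cohesin and condensin are ring complexes that hold and fold chromosomes, Polycomb complexes keep genes silent through histone marks, and RNA helicases and LARP proteins act on RNA folding and stability. G-quadruplexes are folds of guanine-rich DNA or RNA in which runs of guanines stack, and they occur in many promoters and in some transcripts.

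The promoters of the 2 protein-coding genes that were highest and of the 2 that were lowest after M2 are shown because the series concerns G-quadruplexes and because promoters and transcripts of these genes differ in base composition in unlike ways. Each is the RefSeq window of 300 bases, from 250 before to 50 after the start, on the GRCh38.p14 build, written 5′ to 3′ on the gene's strand. Capitals mark runs of at least 3 G or at least 3 C, the pieces from which the motif described further on is built. LARP4 (chr12:50400635-50400934, plus strand) and TFRC (chr3:196082041-196082340, minus strand) were the highest, and EHD2 (chr19:47713172-47713471, plus strand) and SDC1 (chr2:20225426-20225725, minus strand) the lowest.
LARP4: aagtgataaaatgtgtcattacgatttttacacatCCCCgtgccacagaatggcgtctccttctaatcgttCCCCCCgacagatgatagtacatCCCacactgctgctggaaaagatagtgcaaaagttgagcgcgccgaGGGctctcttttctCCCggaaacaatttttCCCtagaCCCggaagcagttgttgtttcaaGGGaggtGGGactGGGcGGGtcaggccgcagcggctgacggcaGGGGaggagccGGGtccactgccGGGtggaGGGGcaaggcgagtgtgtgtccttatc
TFRC: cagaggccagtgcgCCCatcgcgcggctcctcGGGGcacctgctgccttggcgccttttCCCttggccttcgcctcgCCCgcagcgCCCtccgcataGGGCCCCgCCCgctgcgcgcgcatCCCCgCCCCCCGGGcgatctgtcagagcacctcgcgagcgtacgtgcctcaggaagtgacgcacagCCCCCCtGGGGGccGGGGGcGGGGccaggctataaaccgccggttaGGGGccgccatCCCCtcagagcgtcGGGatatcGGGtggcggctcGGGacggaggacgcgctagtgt
EHD2: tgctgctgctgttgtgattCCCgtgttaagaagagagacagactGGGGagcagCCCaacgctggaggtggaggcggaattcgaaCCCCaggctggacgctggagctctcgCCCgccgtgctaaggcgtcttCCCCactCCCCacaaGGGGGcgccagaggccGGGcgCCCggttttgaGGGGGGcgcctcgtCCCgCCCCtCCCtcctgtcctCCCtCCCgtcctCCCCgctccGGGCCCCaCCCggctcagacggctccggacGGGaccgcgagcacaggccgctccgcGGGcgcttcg
SDC1: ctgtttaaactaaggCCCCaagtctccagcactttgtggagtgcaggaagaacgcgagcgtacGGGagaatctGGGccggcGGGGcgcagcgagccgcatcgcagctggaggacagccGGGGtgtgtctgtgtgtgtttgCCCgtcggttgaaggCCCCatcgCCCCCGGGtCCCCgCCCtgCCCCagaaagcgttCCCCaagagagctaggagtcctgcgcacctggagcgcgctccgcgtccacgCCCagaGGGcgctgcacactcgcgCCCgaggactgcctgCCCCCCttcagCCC
Their GC content was 55.3% for LARP4, 73.3% for TFRC, 71.0% for EHD2 and 67.7% for SDC1. The windows hold 15, 20, 22 and 18 such runs in the same order.

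After M2, 17.4% of the 3805 counted genes (661) exceeded the control by 2-fold or more, and 8.88% (338) lay 2-fold or more below it. The other 2806 genes, 73.7%, lay within 2-fold. Of the lower genes, 228 reached the minimum in the control only, and of the higher genes 120 reached it in the M2 library only, so that their place on that side depends in part on the minimum. Differences beyond 4-fold were few, with 16 genes higher and 19 lower. The median log2 ratio was −0.02, the 5th percentile −1.20 and the 95th percentile 1.46. Counting error alone was modest at this depth, since the interval of a counted gene had a median width of 0.72. The interval lay above 0 for 1460 genes, below 0 for 1244 and held 0 for 1101. Protein-coding genes made up 634 of the higher and 285 of the lower genes. Of the genes past 2-fold, 66.2% were higher, and this balance moved with the scaling. It was 85.4% (969 higher, 166 lower) with scaling to the total count, which moved the median log2 ratio to 0.24. It was 47.0% (469 higher, 529 lower) with scaling to the total without the 7SL and 7SK genes, with a median of −0.18.

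**Figure D1:**
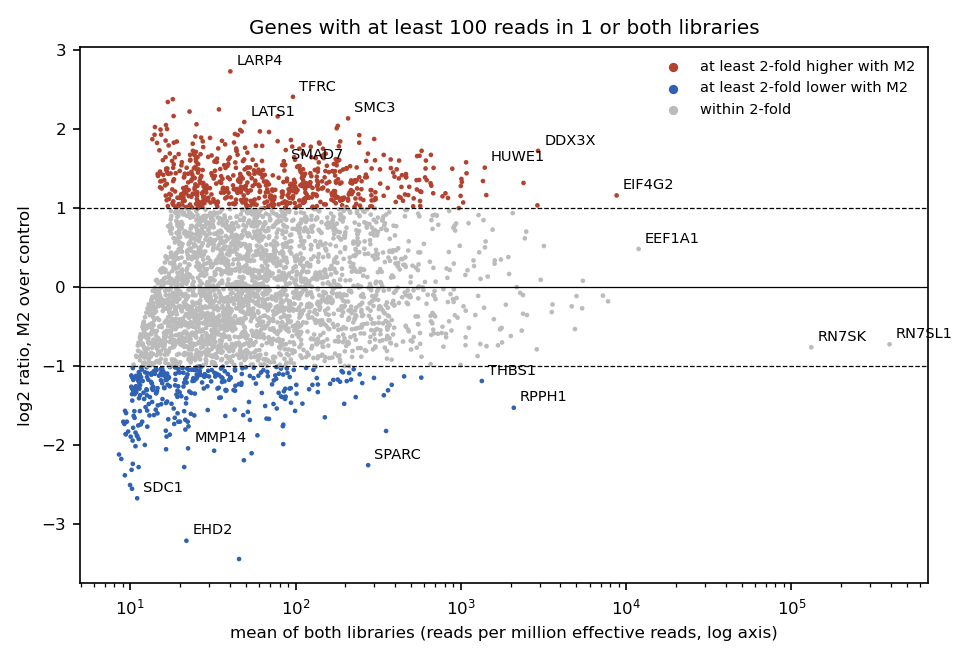
Log2 ratio of M2 over control (vertical axis) against the mean of both libraries in CPM of the effective (TMM-scaled) library (horizontal log axis) for the 3805 counted genes, with 661 at least 2-fold higher in red, 338 at least 2-fold lower in blue and the rest in grey. EHD2 and SPARC stand at the low end and LARP4 and TFRC at the high end, and most of the genes more than 2-fold lower have few reads.

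The ratio followed the base composition of the transcript. In 5 bins of rising GC content of the longest annotated transcript, the median log2 ratio was 0.91, 0.69, 0.01, −0.37 and −0.67. The bin lowest in GC content held 326 of the higher genes and 3 of the lower ones, and the highest bin 1 and 185. Transcripts of the higher genes had a median GC content of 40.0% and a median length of 6061 nt, those of the lower genes 56.0% and 2949 nt, and those of the counted genes 45.9% and 4108 nt. The rank correlation across genes was −0.69 with GC content and 0.38 with length, given as a description, since genes of a library are not independent replicates. In 5 bins of rising length the median log2 ratio was −0.39, −0.25, 0.02, 0.27 and 0.67. In the LINC-labelled library, set against the same control, the medians over the GC bins were 0.43, 0.24, −0.22, −0.53 and −0.62. When each ratio was centred on genes of like GC content, 174 of 3763 genes (4.62%) passed 2-fold upwards and 243 (6.46%) downwards, and 134 and 115 of these had also passed without centring. Centring on GC content and length together, chosen after the data were seen, gave 139 higher and 246 lower genes. The GC-centred median is therefore given beside the median of each gene group below. Uncentred counts of members past 2-fold stand against the 17.4% higher and 8.88% lower of all counted genes. Counts given as centred stand against the 4.62% higher and 6.46% lower of the genes after centring.

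**Figure D2:**
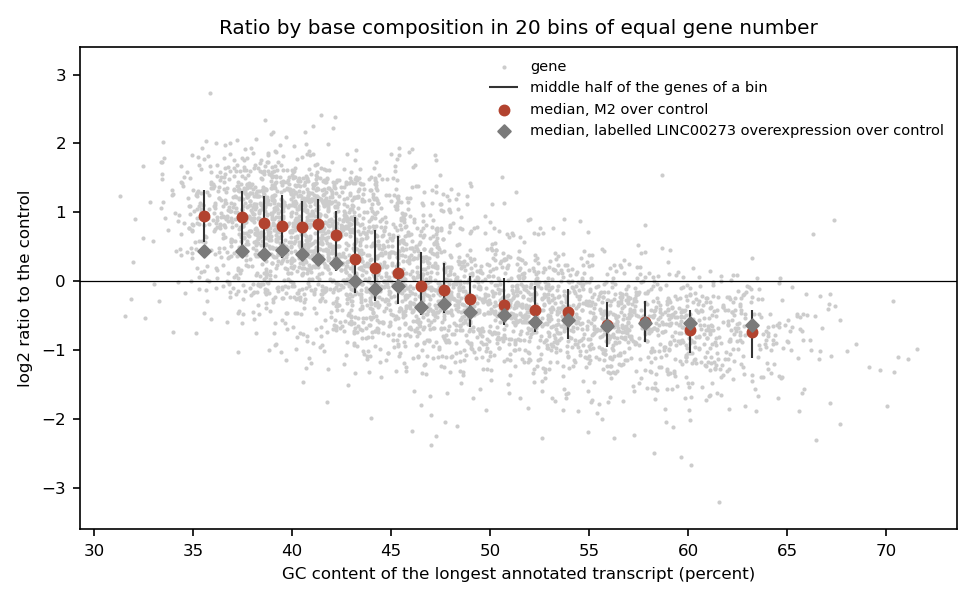
Log2 ratio to the control (vertical axis) against the GC content of the longest annotated transcript in percent (horizontal axis), with counted genes as grey points for M2 over control, medians of 20 bins in red with the middle 50% of the genes as bars, and the medians of the LINC-labelled library over the same control as grey diamonds. The M2 medians lie above 0 below about 45% GC and below 0 above it.

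Promoters did not share this contrast. RefSeq promoter windows were matched for 2971 of the 3502 counted protein-coding genes (84.8%). Among the matched genes, those higher after M2 had a median promoter GC content of 66.3% and those lower 67.7%, while the median GC content of their transcripts was 39.9% and 56.3%. The G-quadruplex motif searched was 4 runs of at least 3 G separated by 1 to 7 bases of any kind, on both strands, so that runs of C count on the other strand. It occurred in 38.6% of the promoters of higher genes (211 of 546), in 46.0% of those of lower genes (109 of 237) and in 34.0% of those within 2-fold. Over all 27305 promoters of the RefSeq table the share was 24.1%. In the middle bin of transcript GC content, the only bin examined, the order was the other way, with 50.6% of the promoters of higher genes (41 of 81) and 29.0% of those of lower genes (9 of 31). Among genes past 2-fold after GC centring the gap was smaller, at 40.1% of higher (57 of 142) and 34.9% of lower genes (65 of 186). Of the promoters printed above, those of LARP4 and SDC1 hold the motif, and those of TFRC and EHD2 do not in this window. On the sense strand of transcripts the motif occurred in 21.2% of higher (139 of 657) and 39.0% of lower genes (130 of 333). Over all counted genes with an annotated transcript the share was 29.8% (1122 of 3763). Within 3 of the 5 bins of GC content, transcripts with and without it had nearly the same median log2 ratio, 0.93 and 0.89 in the lowest bin, 0.01 and 0.01 in the middle bin and −0.67 and −0.66 in the highest. In the second and the fourth bin the transcripts with the motif were a little higher, at 0.74 against 0.66 and at −0.27 against −0.42. A match is a description of letters, not a fold or a binding site.

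The highest protein-coding gene after M2 was LARP4, which binds poly(A) tails and stabilises messages. It had 328 reads with M2, 222 in the LINC-labelled library and 76 in the control, a log2 ratio of 2.73 (2.21 to 3.28). TFRC, the receptor that takes up transferrin-bound iron, had 760 reads with M2, 616 in the LINC-labelled library and 220 in the control and was 5.31-fold higher (2.10 to 2.73 on the log2 scale). In both cases the LINC-labelled library lay between the M2 library and the control once scaled, as the plot of the extreme genes shows. SENP1, a protease that removes SUMO, had 142 reads with M2, 115 in the LINC-labelled library and 42 in the control (2.38 (1.66 to 3.16)). SP4, a zinc finger factor that binds GC boxes, had 132 reads with M2, 46 in the LINC-labelled library and 40 in the control (2.34 (1.60 to 3.14)), and here the LINC-labelled library stood nearer to the control. DDX21, a helicase of the nucleolus, had 266 reads with M2, 142 in the LINC-labelled library and 86 in the control (2.25 (1.74 to 2.78)). The kinesin KIF21A followed with 176 reads with M2, 136 in the LINC-labelled library and 58 in the control (2.22 (1.60 to 2.88)). GLCE, the epimerase of heparan sulfate synthesis, had 140 reads with M2, 165 in the LINC-labelled library and 48 in the control (2.17 (1.48 to 2.90)), so that the M2 and LINC-labelled libraries both exceeded the control. The deubiquitinase OTUD4 had 596 reads with M2, 420 in the LINC-labelled library and 205 in the control (2.16 (1.83 to 2.50)). SMC3, a core subunit of cohesin, had the most reads of the 12, 1586 with M2, 1196 in the LINC-labelled library and 555 in the control (2.14 (1.94 to 2.34)). LATS1, a kinase that restrains YAP in the Hippo pathway, stood at 2.09 (1.68 to 2.52), RABGAP1L at 2.06 and CACNA2D1, a calcium channel subunit, at 2.05. LARP4, SENP1, SP4, DDX21, KIF21A, GLCE, RABGAP1L and CACNA2D1 reached the minimum in the M2 library only. All 12 stayed past 2-fold when centred on GC content, at 1.79 for LARP4, 1.58 for TFRC, 1.71 for SENP1 and 1.29 for SMC3. Centred on GC content and length, 11 of the 12 did, CACNA2D1 standing at 0.96.

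At the other end, EHD2, an ATPase that stabilises caveolae at the membrane, was 9.23-fold lower, with 20 reads with M2, 126 in the LINC-labelled library and 284 in the control (−3.21 (−4.30 to −2.29)). SDC1, the cell-surface proteoglycan syndecan-1, had 14 reads with M2, 63 in the LINC-labelled library and 137 in the control (−2.67 (−4.04 to −1.55)). TINAGL1, a secreted matrix protein, had 14 reads with M2, 26 in the LINC-labelled library and 126 in the control (−2.55 (−3.92 to −1.42)), and its level in the LINC-labelled library was also below the control. AKT2, a kinase of the insulin and PI3K pathway, had 14 reads with M2, 51 in the LINC-labelled library and 122 in the control (−2.50 (−3.88 to −1.37)). UBTD1, OLFML3 and ACAP1 stood at −2.31 (−3.58 to −1.24), −2.27 (−3.46 to −1.26) and −2.27 (−3.10 to −1.54). OLFML3 is a secreted matrix-associated protein and ACAP1 a regulator of ARF6-dependent recycling. SPARC, a secreted glycoprotein that binds collagen, had by far the most reads of the 12, 447 with M2, 1788 in the LINC-labelled library and 3272 in the control, and its narrow interval of −2.46 to −2.05 reflects that depth. MAGED2 had 82 reads with M2, 266 in the LINC-labelled library and 575 in the control (−2.19 (−2.70 to −1.71)). NBAS, a tether of Golgi-to-ER transport, and TNIP1, which restrains NF-kB, stood at −2.17 and −2.12, each with 15 reads with M2. Of these 12 genes, 10 had under 40 reads with M2 and wide intervals, and like MAGED2 these reached the minimum in the control only. All 12 stayed past 2-fold after centring on GC content, EHD2 at −2.47, SDC1 at −1.96 and SPARC at −2.13.

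**Figure D3:**
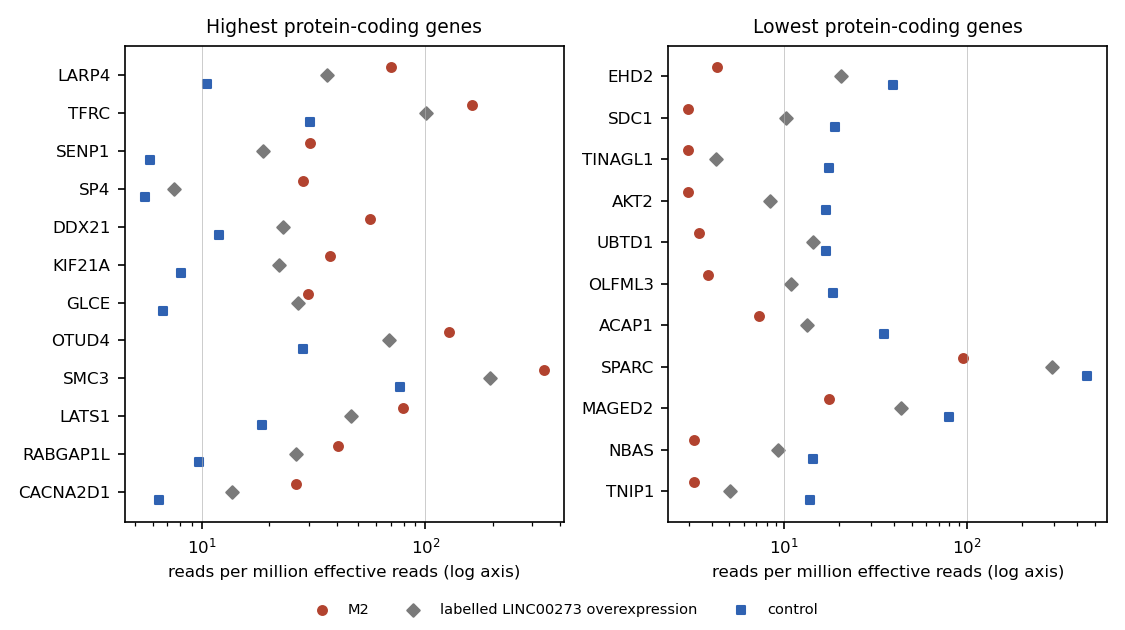
CPM of the effective (TMM-scaled) library (log axis) of the 12 protein-coding genes highest after M2 and 11 of the 12 lowest, in the M2 library (circles), the LINC-labelled library (diamonds) and the control (squares), 1 library each. The diamonds of most genes lie between the circle and the square, while SP4 lies near the control and TINAGL1 near M2.

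Of the 303 counted genes of other types, 280 were pseudogenes. The highest were the pseudogenes NPM1P37 (388 reads with M2 and 195 in the control, 1.61 (1.26 to 1.98)), HSPD1P1 (1.48) and RP11-90H3.1 (1.46), and their parents NPM1, a nucleolar chaperone, and HSPD1, the mitochondrial chaperonin, were also higher at 1.47 and 1.73. The lowest were the pseudogenes CTD-2328D6.1 (36 reads with M2 and 600 in the control, −3.44 (−4.21 to −2.75)), RPL12P38 (−2.38) and ANXA2P2 (−2.10), and the gene ANXA2, a membrane-binding annexin, stood at −1.98. Reads of such near-identical copies may have been split between them, so these values are uncertain. The genes with most reads were RN7SL1 (−0.72), RN7SK (−0.76), EEF1A1 (0.48), EIF4G2 (1.16 (1.14 to 1.19)) and RPL15 (−0.18). Of these only EIF4G2, an initiation factor linked to translation without the cap, passed 2-fold, with 56716 reads with M2, 43989 in the LINC-labelled library and 39000 in the control. Among the 7 counted structural RNAs, RPPH1, the RNA of RNase P, was 2.88-fold lower with 5052 reads with M2, 12036 in the LINC-labelled library and 22352 in the control, and RMRP, the RNA of RNase MRP, stood at −0.08 (−0.76 to 0.57).

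Protein-coding genes that stood out from others of like GC content were partly different ones. SMAD7, an inhibitor of TGF-beta signalling, had the highest GC-centred value of these at 2.14, with 596 reads with M2, 2074 in the LINC-labelled library and 315 in the control and an uncentred ratio of 1.54 (1.26 to 1.83). Its level after M2 thus exceeded the control but lay below that of the LINC-labelled library. The cytoskeletal linker MACF1 stood at 1.99 (1801 reads with M2, 1563 in the LINC-labelled library and 730 in the control), and nucleolin, NCL, an abundant nucleolar protein that binds G-quadruplexes, at 1.95 (1773 reads with M2, 1196 in the LINC-labelled library and 768 in the control). TNRC6A, a scaffold of microRNA silencing, had 2202 reads with M2, 2485 in the LINC-labelled library and 923 in the control and a centred value of 1.94. CRIM1, which binds growth factors at the surface, stood at 1.88, and the ubiquitin ligase HUWE1, the most heavily read of the 6, at 1.86 with 9678 reads with M2, 8216 in the LINC-labelled library and 5216 in the control. After EHD2, the lowest centred values of protein-coding genes belonged to SOD2, the mitochondrial superoxide dismutase (−2.43, 179 reads with M2, 296 in the LINC-labelled library and 931 in the control), TTC39C (−2.25, 234 reads with M2, 206 in the LINC-labelled library and 991 in the control) and ANXA2 (−2.16, 159 reads with M2, 285 in the LINC-labelled library and 968 in the control). SPARC and NBAS completed the 6. The uncentred ratios were −1.76 (−2.10 to −1.43) for SOD2 and −1.46 (−1.76 to −1.17) for TTC39C.

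Several genes of the matrix and the cell surface lay well below the control. Of 36 collagens and matrix glycoproteins only 6 were counted, and 4 of these were at least 2-fold lower and 0 higher, with a median log2 ratio of −1.72 (−1.58 centred on GC content). TINAGL1 and OLFML3 reached the minimum in the control only, and at a minimum of 200 reads summed over both libraries 4 genes were left, 2 of them lower, with a median of −0.56. Besides TINAGL1, OLFML3 and SPARC, these included THBS1, the secreted adhesion protein thrombospondin-1, with 3832 reads with M2, 5238 in the LINC-labelled library and 13409 in the control (−1.19 (−1.26 to −1.11)). The laminin chains LAMC1 and LAMB1 stood at 0.07 (−0.16 to 0.30) and 0.15 (−0.11 to 0.40). Of 10 caveolae genes 5 were counted and 3 were lower (median −1.05, centred −0.64), and 1 was lower when centred. PTRF, the coat protein cavin-1, had 598 reads with M2, 668 in the LINC-labelled library and 2410 in the control (−1.39 (−1.58 to −1.21)), EHD4 stood at −1.05 (−1.32 to −0.78), and CAV1, the caveolin that shapes the pits, at −0.71 (−0.999 to −0.43). Of 21 genes of surface proteoglycans and their sugar chains 9 were counted, with 2 lower and 1 higher when centred. Without centring 4 were lower and 1 higher (median −0.83, centred −0.28). All 4 lower members reached the minimum in the control only and the higher one in the M2 library only, and at 200 summed reads 2 of 6 were lower and 0 higher (median −0.68). EXT2, a polymerase of heparan sulfate, stood at −1.47 (−2.21 to −0.79) against −0.54 (−0.65 to −0.42) for its partner EXT1, the xylosyltransferase XYLT2 at −1.28 (−2.10 to −0.52), and the glypican GPC1 at −1.01 (−1.67 to −0.39), whereas GLCE was the member that was higher. Matrix proteases and their inhibitors were split, with 4 of 21 counted (median −0.53, centred −0.73). MMP14, which cleaves collagen at the membrane, had 41 reads with M2, 139 in the LINC-labelled library and 259 in the control (−2.04 (−2.79 to −1.36)), and its partner and inhibitor TIMP2 had 118 with M2, 230 in the LINC-labelled library and 665 in the control (−1.87 (−2.30 to −1.47)). The sheddase ADAM10 was higher, with 884 reads with M2, 960 in the LINC-labelled library and 435 in the control (1.64 (1.41 to 1.89)), and its relative ADAM17 stood at 0.82 (0.25 to 1.39). The centred value of ADAM10 was 0.80.

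**Figure D4:**
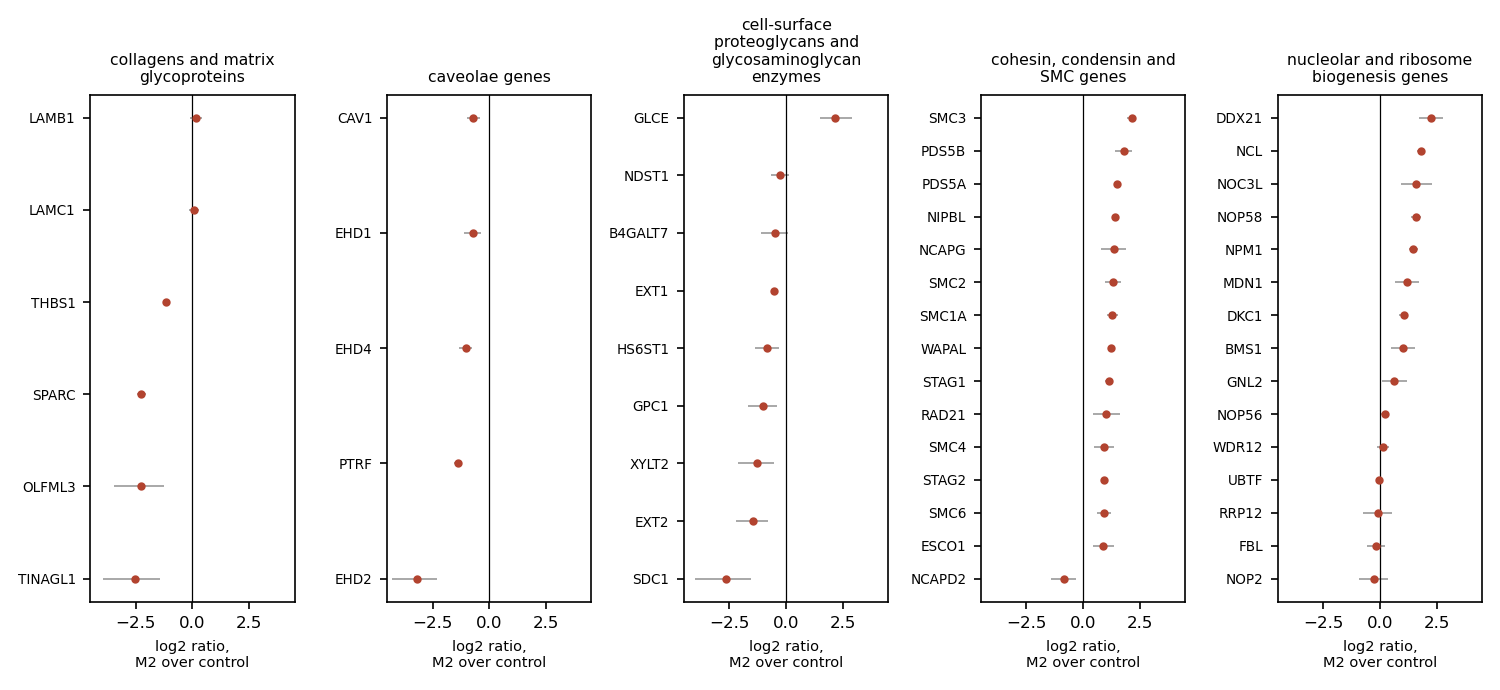
Log2 ratio of M2 over control (horizontal axis) with 95% exact binomial intervals of the read split (bars) for the counted members of 5 gene lists. Most matrix, caveolae and proteoglycan genes lie at or below 0 apart from GLCE, and 14 of 15 cohesin and condensin genes lie above 0.

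Actin, adhesion and contractility genes had a median of −0.54 (−0.11 centred), and 2 of 28 counted members were lower and 1 higher when centred. Without centring 4 were lower and 3 higher. The lower ones were TMSB10, which sequesters actin monomers (341 reads with M2, 813 in the LINC-labelled library and 1641 in the control, −1.65 (−1.89 to −1.41)), the tropomyosin TPM4 (−1.30 (−1.45 to −1.16)), the calponin CNN2 (−1.34 (−2.15 to −0.60)) and the filamin FLNC (−1.15 (−1.73 to −0.61)). ACTB stood at −0.78, PFN1 at −0.55 and MYH9 at −0.35. Higher were MYH10, a non-muscle myosin (535 reads with M2, 554 in the LINC-labelled library and 315 in the control, 1.39 (1.10 to 1.68)), and the kinases ROCK1 (1.07 (0.79 to 1.34)) and ROCK2 (1.11 (0.91 to 1.30)), which activate such myosins. The centred ROCK values were 0.28 and 0.31, and that of MYH10 was 1.65. Microtubule motors had a median of 0.78 (0.45 centred), and 2 of 14 counted genes were higher and 0 lower when centred. Without centring 6 were higher and 0 lower. Of the 6, 3 reached the minimum in the M2 library only, and all 6 were still counted at 200 summed reads. After KIF21A these were KIF5B, a motor of anterograde cargo (2694 reads with M2, 2298 in the LINC-labelled library and 1571 in the control, 1.40 (1.27 to 1.53)), KIF4A of the mitotic chromosomes (1.39 (0.85 to 1.93)), KIF3A (1.25 (0.79 to 1.73)), KIF2A (1.13 (0.80 to 1.46)) and KIF23 (1.12 (0.56 to 1.69)).

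Of the 16 EMT factors and mesenchymal genes 9 were counted, with a median of −0.02 (−0.26 centred), and they pointed both ways. CDH2, N-cadherin, had 201 reads with M2, 235 in the LINC-labelled library and 86 in the control (1.85 (1.32 to 2.40), centred 1.72), so M2 and the LINC-labelled library both exceeded the control. Of the M2 library and the control, it reached the minimum in the M2 library only, and it was still counted at 200 summed reads. PRRX1, a homeobox factor of mesenchymal cells, had 583 reads with M2, 1306 in the LINC-labelled library and 2042 in the control (−1.19 (−1.38 to −0.998), centred −2.01). The EMT repressors ZEB1 and ZEB2 stood at 0.88 (0.52 to 1.23) and 0.90 (0.78 to 1.01), with centred values of 0.03 and 0.10, and TWIST1 and TWIST2 at −0.86 (−1.05 to −0.67) and −0.60 (−0.92 to −0.28). SNAI1 had 0 reads with M2, 0 in the LINC-labelled library and 2 in the control and SNAI2 had 17 with M2, 12 in the LINC-labelled library and 16 in the control, below the minimum. Stemness and oncofetal factors had a median of 0.32 (0.55 centred) over 9 of 20. The Polycomb gene BMI1 was the member past 2-fold (302 reads with M2, 224 in the LINC-labelled library and 182 in the control, 1.35 (0.97 to 1.74)). HMGA2, an oncofetal chromatin protein, had 245 reads with M2, 913 in the LINC-labelled library and 753 in the control (−0.999 (−1.30 to −0.70), centred −1.84), just inside 2-fold. SOX2 had 191 reads with M2, 140 in the LINC-labelled library and 235 in the control (0.32 (−0.08 to 0.72)), and MYC had 176 with M2, 176 in the LINC-labelled library and 242 in the control (0.16 (−0.25 to 0.57)). KLF4 had 40 reads with M2, 43 in the LINC-labelled library and 64 in the control and NANOG 4 with M2, 0 in the LINC-labelled library and 0 in the control. Of 8 breast cancer stem cell markers only ITGA6, an integrin chain, was counted, at 0.71 (0.41 to 1.01). CD44 stood at −0.95 (−1.92 to −0.06), PROM1 had 6 reads with M2 and 16 in the control, ALDH1A1 had 2 reads with M2 and 2 in the control and ALDH1A3 had 0 reads with M2 and 6 in the control. A difference of the last 3 was not detectable at this depth.

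Of 20 genes for drug efflux and drug response 8 were counted, 0 of them past 2-fold when centred on GC content. Without centring 3 were higher and 0 lower (median 0.72, centred 0.42). The higher ones were the caspase inhibitor XIAP (368 reads with M2, 343 in the LINC-labelled library and 198 in the control, 1.52 (1.16 to 1.88)) and the topoisomerases TOP2A (3182 reads with M2, 2541 in the LINC-labelled library and 1814 in the control, 1.43 (1.31 to 1.55)) and TOP2B (1.35 (1.25 to 1.46)), the targets of anthracyclines and etoposide. The efflux pump ABCB1 had 21 reads with M2, 37 in the LINC-labelled library and 31 in the control and ABCC1 had 9 with M2, 22 in the LINC-labelled library and 16 in the control. ABCC2 had 5 reads with M2, 27 in the LINC-labelled library and 28 in the control (−1.86 (−4.60 to 0.10)) and ABCC3 had 4 with M2, 16 in the LINC-labelled library and 26 in the control (−2.08 (−5.27 to 0.06)), all below the minimum. The miR-200 targets, 15 counted, had 2 higher and 0 lower, both smaller shares than the 17.4% and 8.88% of all counted genes. Their median of 0.54 was 0.03 when centred on GC content and below 0 when centred on GC content and length. SUZ12, a Polycomb subunit, stood at 1.86 (1.58 to 2.15) with 688 reads with M2, 652 in the LINC-labelled library and 291 in the control, and BMI1 is also on this list. QKI stood at 0.98 (0.87 to 1.09), FN1 at −0.02 (−0.43 to 0.38) and the miR-200 target MSN at −0.46 (−0.60 to −0.31). Oncogenes with promoter G-quadruplexes were mixed, 3 of 11 counted higher and 2 lower, with a median of 0.16 (0.48 centred) that lay below 0 with scaling without the 7SL and 7SK genes. The receptor MET (1.47 (1.01 to 1.95)) and the chaperone HSP90AA1 (1.33 (1.25 to 1.41)) were among the higher ones. The receptor AXL (32 reads with M2, 87 in the LINC-labelled library and 151 in the control, −1.62 (−2.50 to −0.83)) and the kinase SRC (−1.34 (−2.15 to −0.60)) were lower, and VEGFA had 300 reads with M2, 879 in the LINC-labelled library and 446 in the control (0.05 (−0.26 to 0.35)). AXL and SRC reached the minimum in the control only, and at 200 summed reads 3 of 9 genes of this list were higher and 0 lower.

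Cohesin, condensin and related SMC genes had the highest median of the lists, 1.24, with 10 of the 15 counted members higher and 0 lower, against 17.4% and 8.88% of all counted genes. Of the 10, 2 reached the minimum in the M2 library only, and at 200 summed reads 10 of 15 were higher. When centred on GC content the median was 0.37, and the median GC content of these transcripts was below that of the counted genes. Among the regulators of cohesin, PDS5B had 418 reads with M2, 423 in the LINC-labelled library and 186 in the control (1.79 (1.43 to 2.16)), PDS5A 2613 with M2, 2214 in the LINC-labelled library and 1414 in the control (1.51 (1.37 to 1.64)) and the loader NIPBL 3159 with M2, 2298 in the LINC-labelled library and 1851 in the control (1.39 (1.27 to 1.51)). The releaser WAPAL stood at 1.24 (1.08 to 1.40). Of the core ring, SMC1A stood at 1.29 (1.06 to 1.52) and RAD21 at 1.03 (0.45 to 1.61), both below SMC3, and of the STAG subunits STAG1 stood at 1.13 (0.99 to 1.27) and STAG2 at 0.93 (0.83 to 1.04). SMC3 and SMC1A were the members past 2-fold after GC centring, at 1.29 and 1.41. The condensin gene NCAPG stood at 1.35 (0.81 to 1.90) and SMC2 at 1.31 (0.97 to 1.65), while NCAPD2 was on the other side at −0.85 (−1.43 to −0.30).

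DNA repair and replication stress genes had 6 of 10 counted members higher and 0 lower (median 1.13, centred 0.36). They were the chromatin protein ATRX (1884 reads with M2, 1239 in the LINC-labelled library and 957 in the control, 1.60 (1.44 to 1.76)), the helicases DHX9 (1.48 (1.26 to 1.71)) and DHX36 (1.48 (0.82 to 2.15)), the checkpoint kinases ATR (1.24 (0.86 to 1.63)) and ATM (1.06 (0.59 to 1.55)), and RIF1 (1.20 (0.64 to 1.77)). DHX36 unwinds G-quadruplexes, and had 114 reads with M2, 118 in the LINC-labelled library and 63 in the control. Only 10 of the 36 genes of this list were counted, and 1 was higher and 0 lower when centred on GC content. Of the 6 higher members 2 reached the minimum in the M2 library only, and at 200 summed reads 5 of 9 were higher. Cell cycle genes were less one-sided. No G1/S gene of 12 counted passed 2-fold without centring (median 0.28, centred 0.04), and MCM4 and POLE did so when centred, at 1.202 and 1.11. The uncentred ratios included MCM5 at −0.97 (−1.31 to −0.65), CDK4 at −0.82 (−1.55 to −0.14) and MCM4 at 0.94 (0.49 to 1.39). Of 9 counted G2/M genes, CKAP5 (1.39 (1.24 to 1.55)) and TOP2A were higher, while CDC20 stood at −0.87 (−1.28 to −0.47) and PLK1 at −0.84 (−1.43 to −0.29), and the median of 0.66 was −0.02 when centred on GC content. Replication-dependent histones, whose messages lack poly(A) tails, had a median of −0.57 (−0.19 centred) over 6 counted genes, HIST1H3H being lower (−1.17 (−1.89 to −0.50)) and HIST2H2BE at −0.47 (−0.57 to −0.36).

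Chromatin remodellers and histone modifiers had 11 of 43 counted genes higher and 0 lower, with a median of 0.59 (0.44 centred). KAT6A, a histone acetyltransferase, had 1013 reads with M2, 835 in the LINC-labelled library and 438 in the control (1.83 (1.60 to 2.07), centred 1.70). The chromodomain remodellers CHD9 (1.76 (1.29 to 2.24)), CHD1 (1.69 (1.47 to 1.91)) and CHD6 (1.39 (0.88 to 1.90)) and the ISWI ATPase SMARCA5 (3163 reads with M2, 2611 in the LINC-labelled library and 1853 in the control, 1.39 (1.27 to 1.51)) followed. The methyltransferase SETD2 stood at 1.20 (0.89 to 1.52), the demethylase KDM6A at 1.19 (0.99 to 1.38), and HDAC5 at −0.91 (−1.11 to −0.72). Polycomb genes had 5 of 16 counted higher and 0 lower (median 0.88, centred 0.31). SUZ12 led, followed by ASXL2 (277 reads with M2, 517 in the LINC-labelled library and 139 in the control, 1.62 (1.19 to 2.05)), PHC3 (1.37 (0.98 to 1.76)), BMI1 and MTF2 (1.28 (1.04 to 1.51)). EZH2, the methyltransferase of the same complex as SUZ12, stood at 0.94 (0.70 to 1.19) and EED at 0.59 (0.35 to 0.82). None of these 5 stayed past 2-fold after GC centring, SUZ12 standing at 0.93.

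Of 25 counted DEAD and DEAH box helicases 12 were higher and 3 lower (median 0.94, centred 0.32), and 4 were higher and 2 lower when centred. All 3 lower members reached the minimum in the control only, and 2 of the 12 higher ones in the M2 library only. At 200 summed reads 11 of 23 were higher and 3 lower. DDX3X, which helps ribosomes scan structured messages, had 21081 reads with M2, 16198 in the LINC-labelled library and 9805 in the control (1.73 (1.68 to 1.77), centred 0.92), and DDX6, which silences messages in P-bodies, had 2657 with M2, 2473 in the LINC-labelled library and 1333 in the control (1.62 (1.48 to 1.75)). EIF4A3, the helicase of the exon junction complex, was lower with 52 reads with M2, 120 in the LINC-labelled library and 198 in the control (−1.31 (−1.99 to −0.67), centred −1.43), as were DHX38 (−1.07 (−1.72 to −0.46)) and DDX41 (−1.02 (−1.64 to −0.44)). Of 33 counted genes for RNA stability and LARP proteins 12 were higher and 0 lower (median 0.78, centred 0.48). Of the 12, 2 reached the minimum in the M2 library only, and at 200 summed reads 12 of 31 were higher. After LARP4 came FMR1, which represses translation (1357 reads with M2, 1150 in the LINC-labelled library and 507 in the control, 2.04 (1.83 to 2.26)), TNRC6A, the nonsense-mediated decay factor UPF2 (692 reads with M2, 517 in the LINC-labelled library and 310 in the control, 1.78 (1.502 to 2.06)), CNOT1, the scaffold of the CCR4-NOT deadenylase (4701 reads with M2, 4586 in the LINC-labelled library and 2265 in the control, 1.67 (1.57 to 1.78)), and DICER1, which cuts microRNA precursors (1.43 (1.05 to 1.82)). UPF1, the helicase of nonsense-mediated decay, stood at −0.33 (−1.03 to 0.34), AGO2 at 0.17 (−0.08 to 0.43), LARP1 at 0.16 (−0.02 to 0.33) and G3BP1, a stress granule protein, at −0.48 (−1.16 to 0.16). Splicing factors, 49 of 51 counted, had 11 higher and 0 lower (median 0.45, centred 0.28), and 1 higher and 1 lower when centred. RBM25 (1255 reads with M2, 977 in the LINC-labelled library and 641 in the control, 1.59 (1.39 to 1.79)) and the hnRNP genes HNRNPH1 (7551 reads with M2, 6833 in the LINC-labelled library and 3884 in the control, 1.58 (1.501 to 1.66)), HNRNPA2B1 (1.34 (1.28 to 1.41)) and HNRNPA3 (1.32 (1.27 to 1.37)) were among them. The catalytic core gene PRPF8 stood at 0.20 (0.04 to 0.36) and U2AF2 at −0.30 (−0.44 to −0.15).

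Nucleolar and ribosome biogenesis genes had 8 of 15 counted members higher and 0 lower, and the median of 1.01 was 0.62 after GC centring, the highest centred median of the lists with at least 5 counted members. The 3 counted globins had a centred median of 1.41. Of the 8 higher nucleolar genes 2 reached the minimum in the M2 library only, and at 200 summed reads 7 of 13 were higher. DDX21 and NCL led, with NOC3L (111 reads with M2 and 56 in the control, 1.61 (0.93 to 2.32)), the box C/D snoRNP protein NOP58 (970 reads with M2, 590 in the LINC-labelled library and 499 in the control, 1.58 (1.36 to 1.81)) and NPM1 (1.47 (1.27 to 1.67)). The pseudouridine synthase DKC1 stood at 1.05 (0.85 to 1.25). The methylase fibrillarin, FBL, which works with NOP58, was at −0.18 (−0.57 to 0.21), and UBTF, a factor of RNA polymerase I, at −0.02 (−0.15 to 0.12). Cytosolic ribosomal proteins, which are assembled with the help of these genes, had a median of −0.59 (−0.22 centred). Of 32 counted genes 2 were lower and 0 higher, a smaller share than the 8.88% of all counted genes that were lower. When centred, 5 of 32 were lower and 0 higher, a larger share than the 6.46% of all centred genes that were lower. The uncentred values follow. RPS20 (62 reads with M2, 119 in the LINC-labelled library and 241 in the control, −1.34 (−1.96 to −0.76)) and RPL37A (1682 reads with M2, 3001 in the LINC-labelled library and 5714 in the control, −1.14 (−1.26 to −1.03)) were lower, RPLP0 stood at −0.27 (−0.30 to −0.23) and RPS3A at 0.53 (0.10 to 0.97), and 4 of 32 ratios lay above 0. Ribosomal protein genes have many processed pseudogenes, so their reads may have been split.

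**Figure D5:**
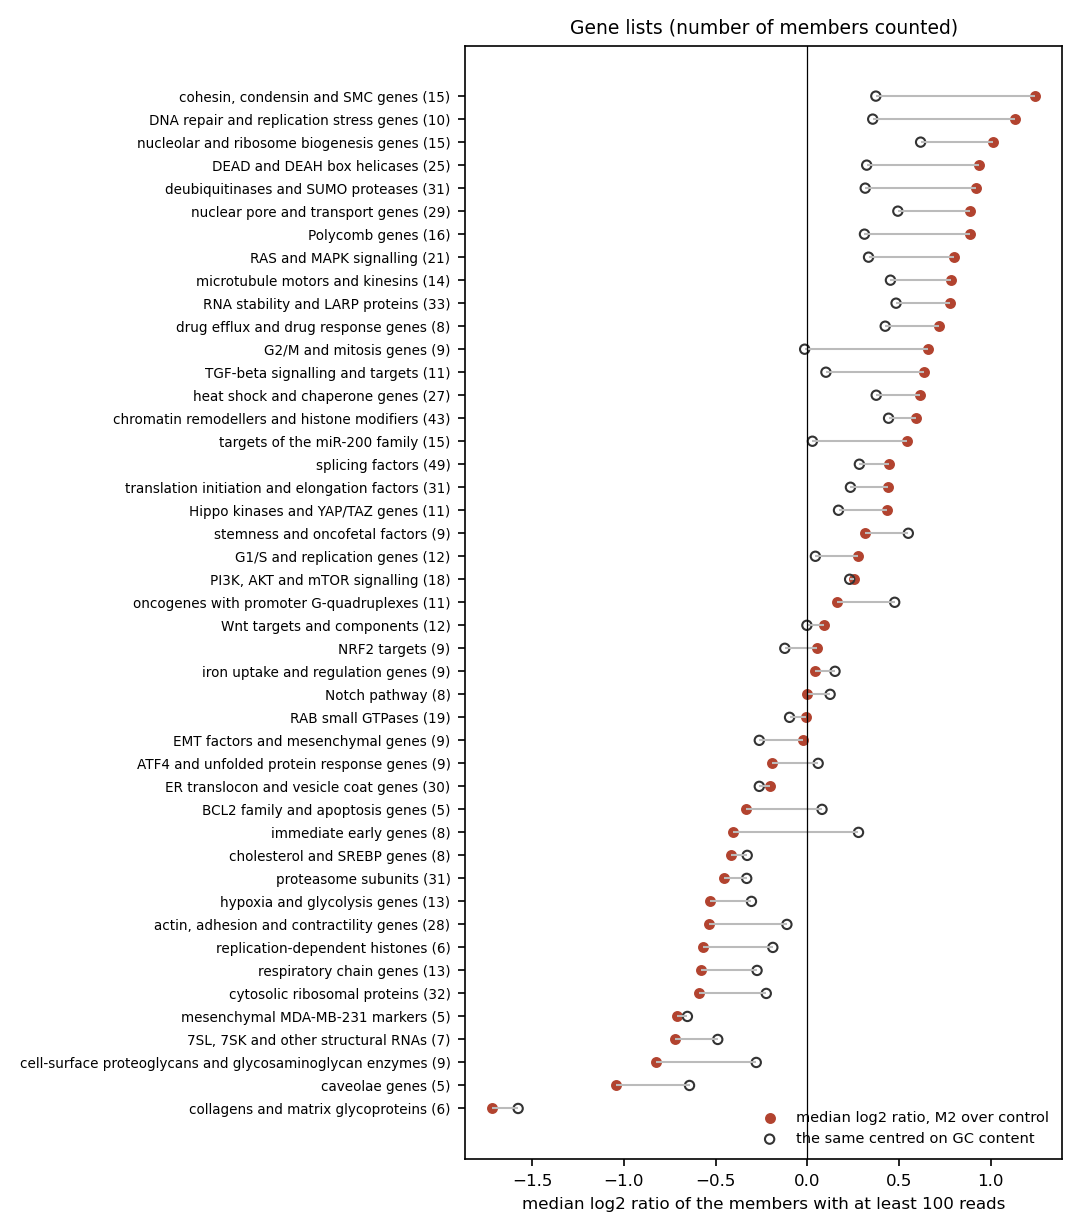
Median log2 ratio of M2 over control (horizontal axis) of the counted members of each gene list with at least 5 of them (filled circles) and the same after centring on genes of like GC content (open circles), with the number of counted members in brackets. Cohesin genes have the highest median, 1.24, and collagens and matrix glycoproteins the lowest, −1.72, which was −0.56 at 200 summed reads, and most medians lie nearer to 0 after centring.

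Translation initiation and elongation factors had 10 of 31 counted genes higher and 0 lower (median 0.44, centred 0.23), and 1 higher and 1 lower when centred. EIF3A, the largest subunit of the eIF3 complex, had 1058 reads with M2, 878 in the LINC-labelled library and 483 in the control (1.75 (1.53 to 1.98), centred 1.44), whereas the subunits EIF3D and EIF3H of the same complex stood at −0.96 (−1.40 to −0.53) and −0.98 (−1.35 to −0.62). EIF3J (1.59 (1.31 to 1.89)), the ribosome recycling factor ABCE1 (2241 reads with M2, 1677 in the LINC-labelled library and 1226 in the control, 1.49 (1.35 to 1.64)) and EIF5 (1.44 (1.36 to 1.52)) were also higher. The elongation factor EEF2 stood at −0.75 (−1.14 to −0.37). Nuclear pore and transport genes had 12 of 29 counted genes higher and 0 lower (median 0.89, centred 0.49), and 4 higher and 0 lower when centred. Of the 12, 1 reached the minimum in the M2 library only. TPR, which forms the nuclear basket, had 515 reads with M2, 374 in the LINC-labelled library and 203 in the control (1.96 (1.63 to 2.31)), and the import receptors TNPO1 (1960 reads with M2, 1632 in the LINC-labelled library and 934 in the control, 1.69 (1.53 to 1.85)), KPNA4 (1.67 (1.53 to 1.82)) and IPO7 (1.66 (1.55 to 1.78)) were higher. The GTPase RAN stood at −0.12 (−0.23 to −0.02) and the main export receptor XPO1 at 0.90 (0.80 to 1.001).

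Within protein turnover the enzymes and the proteasome differed in direction of their medians. Deubiquitinases and SUMO proteases had 12 of 31 counted genes higher and 1 lower (median 0.92, centred 0.32), and 3 higher and 0 lower when centred. Of the 12, 2 reached the minimum in the M2 library only, and at 200 summed reads 11 of 29 were higher and 1 lower. Besides SENP1 and OTUD4, USP37 had 224 reads with M2, 159 in the LINC-labelled library and 93 in the control (1.89 (1.38 to 2.42)) and USP9X 6141 with M2, 5518 in the LINC-labelled library and 3340 in the control (1.5 (1.41 to 1.59)), and USP22, a subunit of the SAGA coactivator, was lower (−1.02 (−1.42 to −0.64)). Proteasome subunits had a median of −0.46 (−0.33 centred), and 5 of 30 were lower and 1 higher when centred. Without centring 3 of 31 counted were lower and 2 higher. The catalytic-ring genes PSMB1 (44 reads with M2, 80 in the LINC-labelled library and 163 in the control, −1.27 (−2.02 to −0.57)) and PSMB6 (−1.02 (−1.38 to −0.66)) and the ATPase PSMC5 (−1.23 (−1.65 to −0.82)) were lower, and the regulatory scaffold PSMD1 (2828 reads with M2, 2227 in the LINC-labelled library and 1546 in the control, 1.49 (1.37 to 1.62)) and the activator PSME4 (1.20 (1.03 to 1.37)) were higher. Chaperones had 7 of 27 counted genes higher and 1 lower (median 0.61, centred 0.38), and 3 higher and 0 lower when centred. Of the 7, 1 reached the minimum in the M2 library only, and the lower one reached it in the control only. HSPD1 had 4163 reads with M2, 2558 in the LINC-labelled library and 1936 in the control (1.73 (1.62 to 1.84)), DNAJC13 stood at 1.65 (1.38 to 1.92) and HSP90AA1 had 6802 with M2, 5466 in the LINC-labelled library and 4154 in the control (1.33 (1.25 to 1.41)), against −0.25 (−0.56 to 0.06) for its paralog HSP90AB1. Calreticulin, CALR, was lower (−1.03 (−1.63 to −0.46)) while its membrane-bound relative calnexin, CANX, was higher (1.26 (1.12 to 1.39)).

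Signalling lists contained members on both sides. All lower members of the TGF-beta, Hippo, Wnt, PI3K and RAS and MAPK lists reached the minimum in the control only. Of the higher members, 2 of 7 in the PI3K list and 2 of 8 in the RAS and MAPK list reached it in the M2 library only. In the TGF-beta, Hippo and Wnt lists 0 higher members did so. At 200 summed reads the TGF-beta, Hippo and PI3K lists had 0 lower, and the Wnt and the RAS and MAPK list kept 2 and 1. At that minimum 6 of 15 PI3K genes and 8 of 21 RAS and MAPK genes were higher. In the TGF-beta list 3 of 11 counted genes were higher and 1 was lower (median 0.64, centred 0.10). Of its receptors, BMPR2 had 316 reads with M2, 400 in the LINC-labelled library and 144 in the control (1.76 (1.34 to 2.18)) and BMPR1A stood at 1.10 (0.63 to 1.57), while TGFBR2 was lower with 46 reads with M2, 119 in the LINC-labelled library and 152 in the control (−1.10 (−1.84 to −0.41)). The signal carriers SMAD2, SMAD4 and SMAD3 stood at 0.82 (0.58 to 1.05), 0.82 (0.47 to 1.16) and −0.82 (−1.48 to −0.18). In the Hippo list LATS1, its cofactor MOB1A (1.38 (0.92 to 1.85)) and CRIM1 were higher, AXL was lower, YAP1 stood at 0.17 (−0.43 to 0.77) and the target CYR61 at 0.45 (−0.10 to 0.99) (median 0.44, centred 0.17, 11 counted). In the Wnt list the receptor FZD1 was lower with 30 reads with M2, 92 in the LINC-labelled library and 191 in the control (−2.05 (−2.94 to −1.26)), as was DVL1 (−1.08 (−1.71 to −0.49)), and APC (781 reads with M2, 635 in the LINC-labelled library and 444 in the control, 1.44 (1.19 to 1.68)) and TNKS (1.22 (0.84 to 1.60)) were higher, with CTNNB1 at −0.19 (−0.27 to −0.10) (median 0.09, centred −0.00282, 12 counted). Of 8 counted Notch genes (median −0.00303, centred 0.12) ADAM10 alone passed 2-fold, RBPJ stood at 0.91 (0.82 to 1) and JAG2 at −0.67 (−0.91 to −0.42).

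The PI3K list had 7 of 18 counted genes higher and 1 lower (median 0.26, centred 0.23), and 1 higher and 1 lower when centred. The catalytic subunits PIK3CB (124 reads with M2, 78 in the LINC-labelled library and 59 in the control, 1.69 (1.04 to 2.38)) and PIK3CA (340 reads with M2, 335 in the LINC-labelled library and 186 in the control, 1.49 (1.12 to 1.87)) were both higher. Of the AKT kinases, AKT2 was lower and AKT1 stood at −0.87 (−1.65 to −0.15). In the RAS and MAPK list 8 of 21 counted genes were higher and 1 lower (median 0.80, centred 0.33), and 2 were higher and 1 lower when centred. The stress kinases MAPK9 (176 reads with M2, 112 in the LINC-labelled library and 88 in the control, 1.62 (1.08 to 2.18)) and MAPK8 (736 reads with M2, 548 in the LINC-labelled library and 391 in the control, 1.53 (1.28 to 1.79)) and the RAS inhibitors RASA1 (1.34 (1.17 to 1.504)) and NF1 (1.18 (1.01 to 1.35)) were higher. DUSP6, an ERK phosphatase and ERK target, was lower with 77 reads with M2, 83 in the LINC-labelled library and 273 in the control (−1.20 (−1.76 to −0.68)), and MAP2K1 stood at −0.89 (−1.29 to −0.51). Among immediate early genes JUND (−1.28 (−1.59 to −0.99)) and DUSP6 were lower and JUN stood at −0.18 (−0.35 to −0.01), and the list's median of −0.41 was 0.28 after GC centring. Of 5 counted BCL2 family and apoptosis genes, BIRC6 (1.42 (1.30 to 1.54)) and XIAP were higher and BCL2L1 and MCL1 stood at −0.54 (−0.81 to −0.27) and −0.50 (−1.03 to 0.02). The median of this list was −0.33, and 0.08 with GC centring. Of the p53 targets MDM2 stood at 0.88 (0.49 to 1.27) and GADD45A at 0.07 (−0.16 to 0.30).

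Of the metabolic lists, glycolysis, the respiratory chain and cholesterol had medians below 0, and iron and NRF2 genes medians near 0. Genes of hypoxia and glycolysis had a median of −0.53 (−0.31 centred), and 0 of 13 counted were lower or higher when centred. Without centring 3 were lower and 0 higher. The lower ones were the enzymes ENO1 (251 reads with M2, 444 in the LINC-labelled library and 939 in the control, −1.28 (−1.58 to −0.995)) and ALDOA (487 reads with M2, 834 in the LINC-labelled library and 1688 in the control, −1.17 (−1.38 to −0.96)) and the glucose transporter SLC2A1 (−1.10 (−1.41 to −0.81)), and HIF1A stood at 0.83 (0.66 to 1.01). Nuclear-encoded respiratory chain genes had 0 of 13 counted lower or higher when centred (median −0.58, centred −0.27). Without centring 3 were lower and 0 higher. They were CYC1 of complex III (44 reads with M2, 106 in the LINC-labelled library and 220 in the control, −1.70 (−2.43 to −1.03)), NDUFS3 of complex I (−1.15 (−1.59 to −0.72)) and SDHA of complex II (−1.01 (−1.32 to −0.71)). Of 8 counted cholesterol and SREBP genes (median −0.42, centred −0.33), the desaturase SCD (156 reads with M2, 290 in the LINC-labelled library and 522 in the control, −1.12 (−1.51 to −0.75)) and the factor SREBF2 (−1.12 (−1.65 to −0.62)) were lower and the protease MBTPS2 higher (1.59 (1.05 to 2.14)). Iron genes other than TFRC were mostly within 2-fold, with a median of 0.04 over 9 counted (0.15 centred): IREB2, which binds the TFRC message when iron is low, was higher (475 reads with M2, 501 in the LINC-labelled library and 310 in the control, 1.24 (0.94 to 1.54)), ACO1, the related iron regulatory protein, stood at −0.79 (−1.35 to −0.25) and FTH1, the ferritin heavy chain, at −0.17 (−0.85 to 0.48). Among 9 counted NRF2 targets (median 0.05, centred −0.12) TKT was lower (364 reads with M2, 857 in the LINC-labelled library and 1404 in the control, −1.33 (−1.57 to −1.09)) and GCLC, which starts glutathione synthesis, higher (1.14 (0.74 to 1.54)), with NFE2L2 at 0.97 (0.46 to 1.48).

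The remaining lists had few genes past 2-fold. Of 9 counted ATF4 and unfolded protein response genes CREB3L1 was lower (24 reads with M2, 181 in the LINC-labelled library and 116 in the control, −1.65 (−2.68 to −0.74)), ATF4 stood at −0.20 (−0.31 to −0.08) and HSPA5 at 0.58 (0.52 to 0.64). The median of this list, −0.20, was 0.06 after GC centring and also turned sign with scaling to the total count, as did the median of −0.20 (−0.26 centred) of 30 counted genes of the ER translocon and vesicle coats. Among the coat and translocon genes SEC62 (1.35 (1.11 to 1.59)) and SEC24A (1.20 (0.69 to 1.72)) were higher and SEC61B lower (−1.08 (−1.72 to −0.48)). RAB13 (92 reads with M2, 136 in the LINC-labelled library and 344 in the control, −1.28 (−1.78 to −0.80)) was the only RAB gene of 19 counted past 2-fold, with a list median of −0.01 (−0.10 centred). Of 22 NF-kB cytokines and targets 2 were counted, NFKBIA at −0.995 (−1.30 to −0.70) and NFKB2 at −0.69 (−1.18 to −0.21). Of 28 interferon and MHC genes 2 were counted, IRF1 being lower (42 reads with M2, 28 in the LINC-labelled library and 135 in the control, −1.06 (−1.84 to −0.34)) and B2M at −0.39 (−1.08 to 0.27), with 59 reads with M2, 0 in the LINC-labelled library and 119 in the control. Of 35 lysosomal genes 3 were counted and LAMP2 was higher (1.07 (0.61 to 1.53)). MALAT1, a nuclear RNA, stood at −0.13 (−0.28 to 0.02), and 0 of 9 metallothioneins were counted.

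Both ratios to the control share the control library, so the values of M2 and of the LINC-labelled library are given side by side, and examples here were chosen after the values were seen. SP4 had a log2 ratio to the control of 2.34 with M2 and 0.43 in the LINC-labelled library, a direct ratio of M2 to that library of 1.91. DDX21 stood at 2.25 and 0.96 in the same order, and HSPD1 at 1.73 and 0.63. SMAD7 ran the other way, at 1.54 with M2 and 2.95 in the LINC-labelled library, a direct ratio of −1.41. CREB3L1 lay on opposite sides of the control, at −1.65 with M2 and 0.87 in the LINC-labelled library. EHD2 and SPARC were below the control in both, EHD2 at −3.21 and −0.94 and SPARC at −2.25 and −0.64. TTC39C was below the control in both, at −1.46 and −2.03, a direct ratio of 0.57 (0.18 to 0.97). The directions of the LINC-labelled library rest on its label, since LINC00273 had no reads there.

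The authors' deposited table of changed genes for this pair lists 670 genes, 294 as up and 376 as down, with a smallest absolute log2 ratio of 2.09. Of the genes in the authors' deposited table, 23 had at least 100 reads in 1 or both libraries, 10 up and 13 down. All 23 were past 2-fold in the same direction here. Both sets of ratios come from the same 2 libraries and differ only in scaling, so this was fixed in advance and is not a check. Of the 670, 441 had under 20 reads in both libraries. The genes listed as up had a median of 8 reads with M2 and 2 in the control, and those listed as down 2 with M2 and 18 in the control. The extremes of the authors' deposited table were GPR63, with 16 reads with M2 and 1 in the control, and ACTN3, with 1 and 35 in the same order. The authors' deposited term table for the genes listed as down gives a fold enrichment of 3.3 for synaptic membrane (false discovery rate 0.00354), 2.43 for lysosome (0.0144), 1.95 for small molecule metabolic process (0.0199) and 1.73 for cell junction (0.013). Of the lysosomal genes on the list used here only 3 of 35 had enough reads to be counted.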

How the data were processed

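The study measured RNA of MDA-MB-231 tumorspheres, with 1 library for M2, 1 labelled LINC00273 overexpression and 1 control. Per the labels' protocols, total RNA was depleted of ribosomal RNA with RiboCop and read as 150-bp pairs. Per the submitters' processing notes, DESeq2, featureCounts 1.5.2, STAR, Bowtie2 2.2.4 and Trimmomatic were used on the hg19 build. The sources used here do not state their roles, the annotation, the strand setting or the handling of multiply mapped reads, so overlapping and antisense genes cannot be told apart. The deposited tables hold a signal per gene, which is a read count over the size factor of its library. Divided by what 1 read is worth, 100% of the values came out whole (tolerance 0.01). Counts had been assumed in the planned design, and the recovered reads took their place. Since 85.8% (M2), 80.5% (LINC-labelled) and 82.3% (control) of values below 20 reads were even, intervals and floors were computed on fragments, which are reads divided by 2, with a floor of 3 fragments. The authors' deposited table of changed genes gives a log2 ratio per gene, and their term table a fold enrichment, p-value and false discovery rate.

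Reads were scaled by TMM over the 3 libraries (edgeR 4.0.16, R 4.3.3), with effective sizes of 4686051 (M2), 6139145 (LINC-labelled) and 7208511 (control). A count test needs residual degrees of freedom, which 1 library per group does not leave, so genes were described by size, with a minimum of 100 reads in the M2 library, the control or both and a 2-fold difference. A count of genes from such a test on the recovered reads is therefore not given. GC content and length came from the longest GENCODE 29 transcript on GRCh38, matched by Ensembl ID, and promoters from RefSeq on GRCh38.p14. The alternatives were DESeq2 1.42.0 size factors, total counts with and without the 7SL and 7SK genes, TMM over the M2 and control libraries, the deposited size factors, GC centring, other read minimums, protein-coding genes only, a 4-fold threshold and a prior of 5 reads, and GC with length was added after the data were seen. The genes named were the 12 highest and 12 lowest protein-coding genes, the 3 highest and 3 lowest others, the 6 highest and 6 lowest protein-coding genes after GC centring, the 5 with most reads, up to 4 members of each of 58 lists past 2-fold, and the first 4 of the lists the title concerns. A few genes that this rule names are not reported here. Other list members were named for comparison after their values were seen. The comparison and the lists were chosen with earlier results of these data known.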

Additional observations from a re-analysis of the deposited data

How the results depend on the processing

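No paired analysis was possible because each group has 1 library, and no replicate could be left out. TMM over the M2 and control libraries, protein-coding genes only and a prior of 5 reads left the counts, the balance and the median close to the values reported. The number of higher genes, 661, was 174 with GC centring, 139 with centring on GC content and length, 298 at a minimum of 500 reads and 16 at 4-fold. The number of lower genes, 338, was 166 with the total count, 529 with the total without the 7SL and 7SK genes, 1150 at a minimum of 20 reads, 85 at 500 reads, 221 at 200 reads summed over both libraries and 19 at 4-fold. Of the genes past 2-fold, 66.2% were higher. This share was 70.4% with DESeq2 size factors, 71.8% with the deposited size factors, 85.4% with the total count and 47.0% with the total without the 7SL and 7SK genes. It was 41.7% with GC centring, 36.1% with centring on GC content and length, 45.8%, 77.8% and 73.4% at minimums of 20, 500 and 200 summed reads, and 45.7% at 4-fold. The median log2 ratio, −0.02, was 0.0359 with DESeq2 size factors, 0.0584 with the deposited ones, 0.24 with the total count, −0.18 with the total without the 7SL and 7SK genes, and −0.16, 0.0491 and 0.0644 at minimums of 20, 500 and 200 summed reads. At 200 summed reads 3411 genes were counted against 3805, 611 of them higher and 221 lower. Of the 338 lower genes, 228 had reached the minimum of 100 reads in the control only. The cause of these changes was not tested. The 12 protein-coding genes highest and the 12 lowest after M2 all stayed past 2-fold under each other scaling, GC centring and the prior, and 11 of the 12 highest did under centring on GC content and length. The other read minimums were not part of this check. Genes among the lowest that fall short of 200 summed reads include SDC1, TINAGL1, AKT2, UBTD1, OLFML3, NBAS and TNIP1. Among the highest, SENP1, SP4, GLCE and CACNA2D1 fall short of it. Turns of sign were counted among the 48 list medians with at least 3 counted members, except those near 0 (EMT, Notch, Wnt, iron, NRF2 and RAB genes). With GC centring 4 turned (BCL2 family, G2/M, ATF4 and immediate early genes). With GC content and length 4 did (miR-200 targets, BCL2 family, G1/S and immediate early genes). Another 2 turned with the total count (ATF4 genes, ER translocon and vesicle coats) and 1 with the total without the 7SL and 7SK genes (oncogenes with promoter G-quadruplexes). Of the medians near 0, those of Notch, Wnt and NRF2 genes turned with GC centring, to 0.12, −0.00282 and −0.12. Those of Wnt and NRF2 genes turned with GC content and length, to −0.23 and −0.02. Turns of medians near 0 under the other scalings are not given. At 200 summed reads the medians that moved by over 1.5 times were those of matrix glycoproteins (−0.56), G1/S (0.47), oncogenes with promoter G-quadruplexes (0.25), immediate early (−0.63), ATF4 (−0.02), Notch (0.23), iron (0.15) and NRF2 genes (0.32). At minimums of 20 and 500 reads, 19 of 48 and 15 of 42 list medians moved by over 1.5 times or turned sign, those of DNA repair, Polycomb and nucleolar genes being 0.42, 0.23 and 0.49 at 20 reads. Depth limits genes of low level most: of the 57773 genes, 17404 had reads in 1 or both libraries but fewer than 100 in each.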
